A study of Homo sapiens with 11 samples.

Results

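Aminoacyl-tRNA synthetases join each amino acid to its transfer RNA before translation. Human cells make 1 set for the cytosol and another, also encoded in the nucleus, for the mitochondrion. The genes described here are the 36 synthetase genes found by symbol in the count tables of a sunitinib-resistant kidney cancer cell line, out of 26485 gene symbols. Of these, 20 encode cytosolic enzymes and 16 encode mitochondrial enzymes, whose symbols end in 2. The tables write older symbols, so that GARS stands for the gene now called GARS1. All 36 genes had a row in both tables and passed the filter on low counts in every comparison. The lowest count of any member in any library was 90, for PARS2 in a CTRL library of 24 h.

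When a synthetase runs short of its amino acid, uncharged tRNA activates the kinase GCN2 (gene EIF2AK4), which phosphorylates eIF2 alpha. Translation of the transcription factor ATF4 then increases, and ATF4 is known to raise the transcription of many cytosolic synthetase genes together with genes for amino acid synthesis and transport. It acts through C/EBP-ATF response elements, for which the abbreviation CARE is used. Mitochondrial synthetases charge the tRNAs that translate the small set of proteins encoded by mitochondrial DNA, and are not usually listed among ATF4 targets. GARS and KARS each give both a cytosolic and a mitochondrial form from the same gene, and are counted here as cytosolic. FARSA and FARSB encode the subunits of a single enzyme, and EPRS encodes an enzyme for both glutamic acid and proline.

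The cells were Caki-1-SR, a subline of the human clear cell renal carcinoma line Caki-1 from a skin metastasis, made resistant to the kinase inhibitor sunitinib and cultured in 1 µM sunitinib. The drug combination, ODC, held the ruthenium compound Rapta-C at 2 µM, the EGFR inhibitor erlotinib at 1 µM, the antidiabetic metformin at 1 µM and the plant sesquiterpene lactone parthenolide at 5 µM. Messenger RNA was sequenced after 2 h of CTRL (2 libraries) or ODC (3 libraries), and after 24 h of CTRL (3 libraries) or ODC (3 libraries). CTRL cells had no ODC and are described in the sources both as untreated and as sham-treated. All libraries come from 1 resistant clone, the effect of each drug alone cannot be told apart in these samples, and the labels do not say whether libraries of a group came from separate cultures, so p-values measure only the spread between these libraries. The 2 h libraries are labelled November and the 24 h libraries January, and time and month cannot be told apart.

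The libraries held 17785229 to 20882856 counts each at 24 h, and between 25782895 and 31118349 at 2 h. Of the renal epithelial markers, PAX8, KRT8, KRT18, CDH2, VIM and MET were abundant, while PAX2, CA9, NDUFA4L2, CDH1 and EPCAM stayed at or near 0, at most 3.88 CPM, a count scaled to the size of its library. The summed level of the 11 markers ran from 6357 to 6945 CPM in CTRL and from 5109 to 6177 in ODC at 24 h, and its part in the results was not tested. Replicate 1 of CTRL at 2 h stood apart, with 971 counts of COL1A2 and 1081 of COL3A1, both fibrillar collagens, against 0 to 11 and 0 to 6 in the other libraries. The summed level of 5 fibroblast markers was 324 CPM in that library and 137 in the other CTRL library of 2 h, so values at 2 h and differences between the times are also given without it where it changes them. The 4 endothelial and the 4 leukocyte markers summed to at most 1.28 and 2.704 CPM.

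The cytosolic and mitochondrial genes were expressed at different levels. Divided by the length of the main annotated transcript, the CTRL level at 24 h had a median of 90.2 CPM per kilobase over the 20 cytosolic genes and of 14.0 over the 16 mitochondrial genes. GARS was the most abundant at 298, followed by YARS at 194, TARS at 192 and KARS at 173, all on that per-kilobase scale. PARS2, the mitochondrial prolyl enzyme, was the least abundant at 2.33. The ranges met at a few genes, since IARS2 reached 48.7 among the mitochondrial genes while FARSB, at 17.1, was the lowest of the cytosolic genes. In this order, 29 of the 35 pairs of neighbours had overlapping libraries, so most adjacent positions are not separated beyond their spread.

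**Figure D1:**
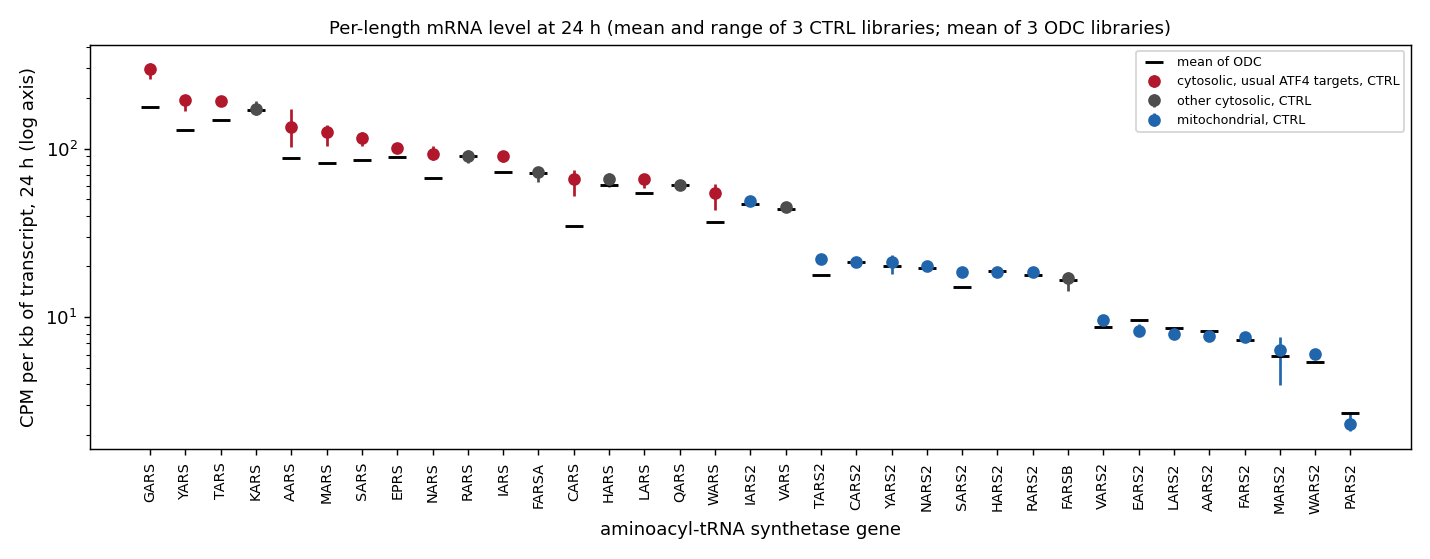
Level of the synthetase genes named on the axis in the 24 h libraries, in CPM per kilobase of transcript on a log axis, with the mean (point) and range (line) of the 3 CTRL libraries and the mean of the 3 ODC libraries (bar). Cytosolic genes lie mostly above mitochondrial genes, from GARS at 298 down to PARS2 at 2.33.

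At 24 h, the cytosolic synthetases were mostly lower with ODC, with a negative log2 fold change in 17 of 20, while the mitochondrial ones lay on both sides of 0, with 10 of 16 negative. Over all 12689 genes tested, 6326 were negative. Summed over the 20 cytosolic genes, the level was 5847 ± 488 CPM in CTRL and 4509 ± 82.2 in ODC (SD, n = 3 each). Summed over the 16 mitochondrial genes, it was 696 ± 11.1 in CTRL and 675 ± 24.1 in ODC. The ratio of the cytosolic to the mitochondrial sum was 8.92, 8.80 and 7.49 in the CTRL libraries and 6.52, 6.91 and 6.61 in the ODC libraries. The ratios of the groups do not overlap. In bulk RNA such as this, fewer cells of a kind and less RNA per cell cannot be told apart.

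**Figure D2:**
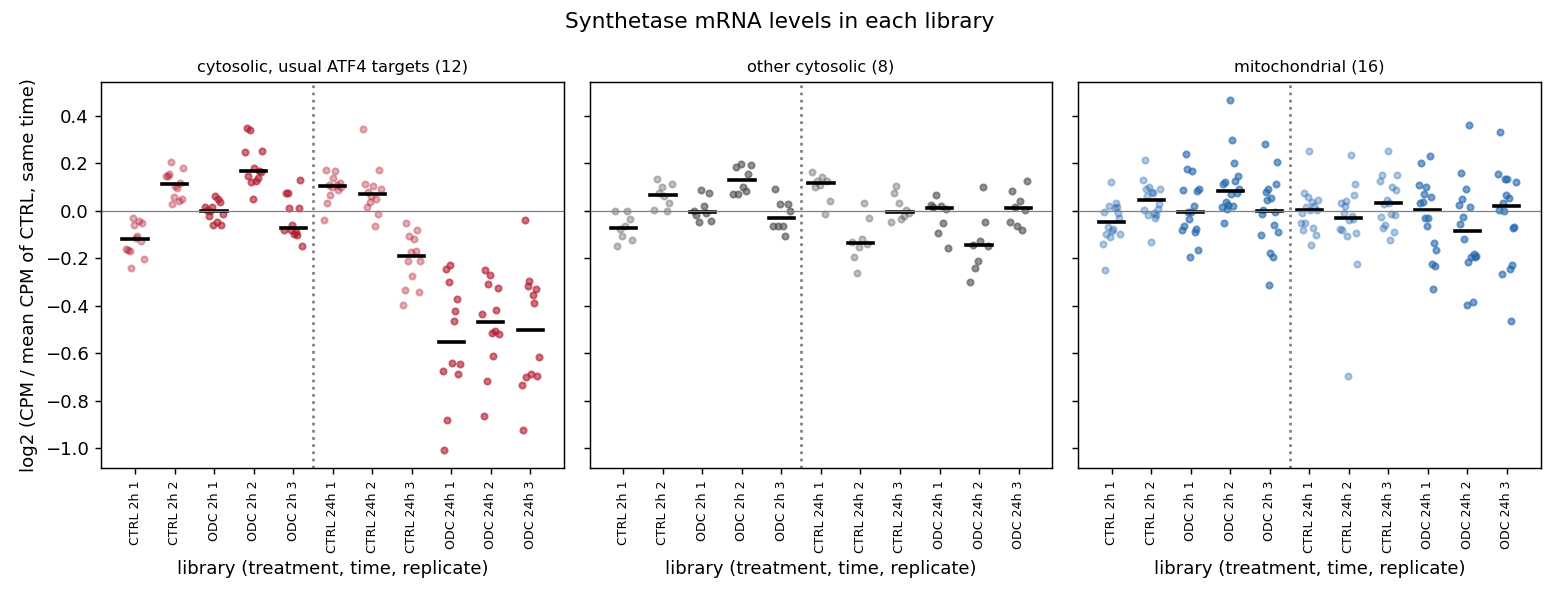
Level of each synthetase gene (points) in each library, as the log2 ratio to the mean CPM of CTRL at the same time, with the median of each library (bars). The 12 cytosolic genes usually listed as ATF4 targets lie lowest in the 24 h ODC libraries, and the other 8 cytosolic and the 16 mitochondrial genes lie around 0.

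Gene by gene, edgeR's quasi-likelihood test gave 11 of the 20 cytosolic genes an unadjusted p under 0.05 with a lower level in ODC, and none with a higher one. Over all 12689 genes tested at 24 h, 5.04% were lower and 7.2% were higher by this rule. The median log2 fold change was -0.27 for the cytosolic genes, -0.034 for the mitochondrial genes and 0.00089 for all genes. Of the mitochondrial genes, 1 was lower (TARS2) and 1 was higher (EARS2) with an unadjusted p under 0.05. After Benjamini-Hochberg adjustment over all genes, no member stayed under 0.05 with the quasi-likelihood test, where 0.189% of genes did. The smallest adjusted p among members was 0.0655, and with the same libraries edgeR's likelihood ratio test called 6 members and DESeq2 called 7, all of them cytosolic and lower, where these tests called 3.16% and 2.98% of all genes. No test compared the compartments with each other, since genes of a set are not replicates.

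The cytosolic genes differed by their listing as ATF4 targets. The 12 that are usually listed (AARS, CARS, EPRS, GARS, IARS, LARS, MARS, NARS, SARS, TARS, WARS and YARS) all had a negative log2 fold change, with a median of -0.50, and 11 of them had an unadjusted p under 0.05, the exception being EPRS. The other 8, among them FARSA, FARSB, HARS, KARS, QARS, RARS and VARS, lay between -0.11 and 0.0070 with a median of -0.018, and none had an unadjusted p under 0.05. The list of ATF4 targets was drawn up with results of these data known, so the split is a description.

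**Figure D3:**
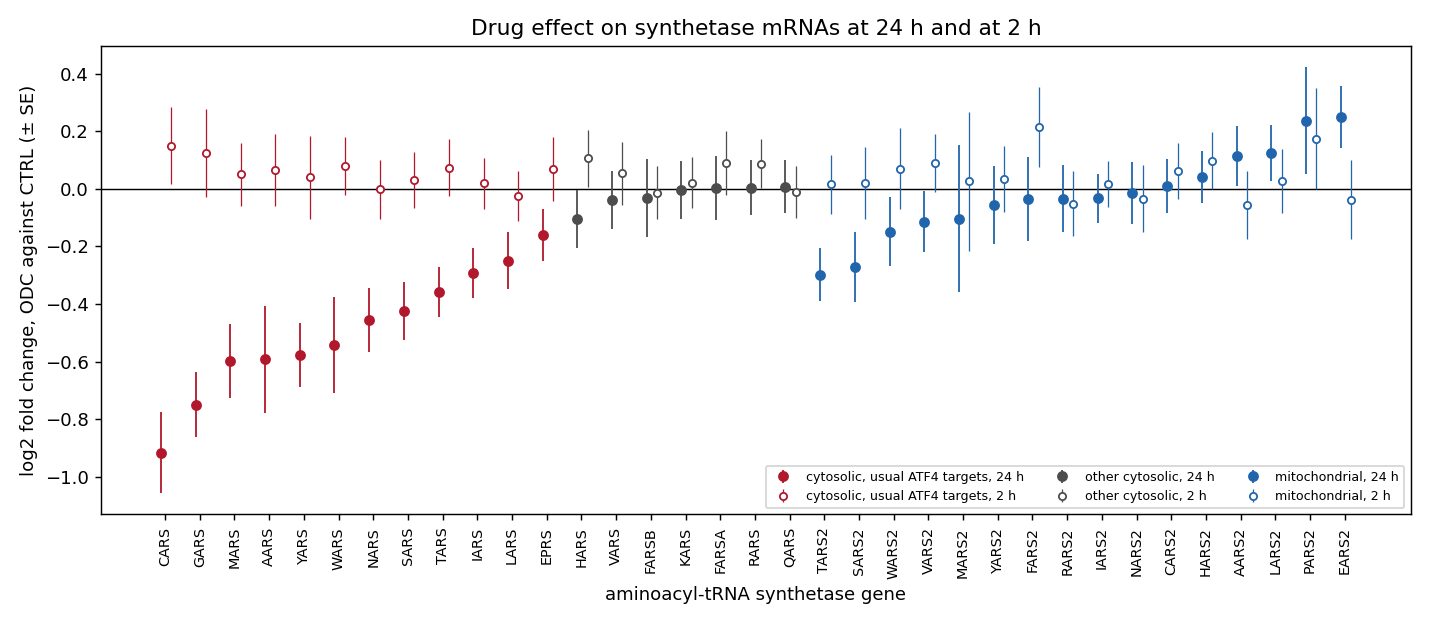
Log2 fold change of ODC against CTRL for the synthetase genes named on the axis at 24 h and at 2 h, with standard errors, grouped by compartment and by listing as an ATF4 target. At 24 h the listed cytosolic genes run from -0.92 (CARS) to -0.16 (EPRS), and the other cytosolic genes lie near 0.

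CARS (now CARS1, ENSG00000110619.18, chr11:3000922-3057613 on the minus strand of hg38), which charges cysteine tRNA, had the lowest log2 fold change of the members. Its level was 204, 196 and 144 CPM in CTRL and 90.03, 99.6 and 95.5 in ODC at 24 h. All 3 libraries of ODC lay under the lowest of CTRL. The log2 fold change was -0.92 (SE 0.14), a level 47.0% lower, with an unadjusted p of 0.000185 and an adjusted p of 0.0655 in edgeR's quasi-likelihood test.

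GARS (now GARS1, ENSG00000106105.15, chr7:30580533-30634033 on the plus strand), the glycyl enzyme, gave 784, 769 and 628 CPM in CTRL and 395, 442 and 447 in ODC. The groups do not overlap, and ODC libraries were 40.5% lower in the fit. The log2 fold change was -0.75 (SE 0.11), with an unadjusted p of 0.000167 and an adjusted p of 0.0655 in edgeR's quasi-likelihood test. GARS is the gene with the highest level per kilobase. KARS, the other gene that serves both compartments, was at 380, 317 and 336 in CTRL against 349, 315 and 354 in ODC, a log2 fold change of -0.0042 (SE 0.10). Its groups overlap.

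YARS, the tyrosyl enzyme, was at 506, 504 and 409 CPM in CTRL and at 303, 330 and 308 in ODC, with a log2 fold change of -0.58 (SE 0.11) and an adjusted p of 0.100 by edgeR. MARS, the methionyl enzyme, was at 387, 378 and 291 in CTRL and at 225, 246 and 218 in ODC, with a log2 fold change of -0.60 (SE 0.13) and an adjusted p of 0.125 by edgeR. In both genes the groups do not overlap. SARS, the seryl enzyme, was at 239, 229 and 197 in CTRL and at 165, 156 and 169 in ODC, with a log2 fold change of -0.42 (SE 0.10) and an adjusted p of 0.153 by edgeR. Its ODC libraries again all lie below the CTRL libraries.

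TARS, the threonyl enzyme, was at 547, 509 and 486 CPM in CTRL and at 397, 384 and 409 in ODC, and its groups do not overlap. Its log2 fold change was -0.36 (SE 0.086). The log2 fold changes of the remaining listed genes were -0.59 for AARS (alanyl), -0.54 for WARS (tryptophanyl), -0.46 for NARS (asparaginyl), -0.29 for IARS (isoleucyl), -0.25 for LARS (leucyl) and -0.16 for EPRS. Of the 12, only EPRS and WARS had overlapping libraries. Over all genes tested, ODC libraries lay below every CTRL library in 8.51% and above in 9.42%. The size of the difference for AARS depends on replicate 2 of CTRL, where AARS was at 587 CPM against 450 and 351. Without that library its log2 fold change was -0.39, and its unadjusted p stayed under 0.05 by edgeR.

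**Figure D4:**
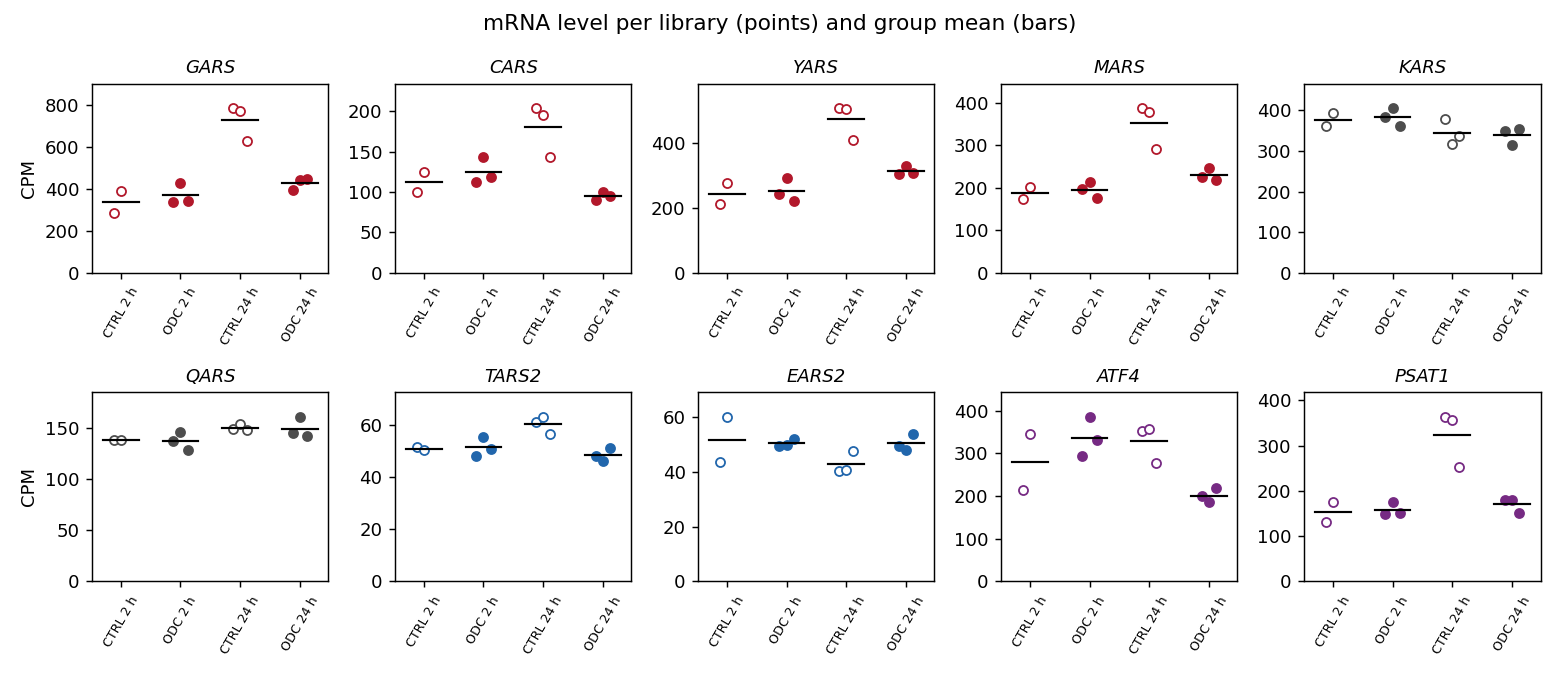
Level of 8 synthetase genes, ATF4 and PSAT1 in CPM, with each library as a point and each group mean as a bar. The 24 h ODC libraries of GARS, CARS, YARS and MARS lie below the 24 h CTRL libraries, and those of KARS and QARS overlap CTRL.

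Within CTRL at 24 h, replicate 3 was the lowest library for all 12 listed genes. It was the lowest for 1 of the other 8 cytosolic genes and for 4 of the 16 mitochondrial genes. Without it, CARS had a log2 fold change of -1.06 and an adjusted p of 0.0342 by edgeR. The mean of CTRL at 24 h exceeded that of CTRL at 2 h for 11 of the 12 listed genes, with a median ratio of 1.42 and a range from 0.985 (EPRS) to 2.15 (GARS). The median ratio was 1.12 for the other cytosolic genes and 1.09 for the mitochondrial genes. Against replicate 2 of CTRL at 2 h alone, the medians were 1.35, 1.09 and 1.05. These ratios carry no test, since time and month cannot be told apart.

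Among the genes near 0, QARS, the glutaminyl enzyme, had the largest log2 fold change of the cytosolic set. It was at 149, 153 and 147 CPM in CTRL and at 144, 160 and 142 in ODC, a log2 fold change of 0.0070 (SE 0.092). Its groups overlap.

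The multisynthetase complex, a particle that holds many of the cytosolic enzymes together, held genes of both kinds. Its 4 enzymes listed as ATF4 targets (EPRS, IARS, LARS and MARS) had a median log2 fold change of -0.27, and 3 of them had an unadjusted p under 0.05. Its 4 other enzymes, with KARS, QARS and RARS among them, had a median of 8.5e-05 and none with such a p. Synthetases fall into structural classes by their catalytic domain, and the median was -0.080 over the 18 class I genes and -0.087 over the 17 class II genes of both compartments.

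Of the 16 mitochondrial genes, 1 (6.25%) was lower and 1 was higher with an unadjusted p under 0.05. Over all genes tested, 5.04% were lower and 7.2% were higher, so these counts lie near the shares over all genes. TARS2, the threonyl enzyme, was at 61.2, 63.2 and 56.8 CPM in CTRL and at 48.1, 46.2 and 51.5 in ODC, with a log2 fold change of -0.30 (SE 0.092) and an adjusted p of 0.250 by edgeR. EARS2, the glutamyl enzyme, was at 40.4, 40.5 and 47.5 in CTRL and at 49.2, 47.9 and 53.9 in ODC, with a log2 fold change of 0.25 (SE 0.11) and an adjusted p of 0.403 by edgeR. Neither gene has overlapping groups. EARS2 had such a p in the reported fit but not with the likelihood ratio test or DESeq2, nor without any library but replicate 3 of CTRL, and with some other scalings SARS2 took its place. The libraries also did not overlap for SARS2 (log2 fold change -0.27, lower in ODC) and LARS2 (0.12, higher). That made 2 of 16 lower and 2 of 16 higher without overlap, where 8.51% and 9.42% of all genes were. These counts were not tested against the shares over all genes. The other 12 mitochondrial genes overlapped, with log2 fold changes from -0.15 for WARS2 to 0.24 for PARS2. Of the 13 amino acids with a cytosolic gene and a mitochondrial partner among the members, the cytosolic gene had the lower log2 fold change in 11. The values were far apart for CARS (-0.92) and CARS2 (0.0092) and closer for TARS (-0.36) and TARS2 (-0.30) or SARS (-0.42) and SARS2 (-0.27). The exceptions were VARS (-0.038) with VARS2 (-0.11) and RARS (0.0044) with RARS2 (-0.034). The differences within pairs were not tested.

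The promoters of the cytosolic genes were searched for the core of the CARE element, the letters TGATGCAA or their reverse complement TTGCATCA, from 250 bases before to 50 bases after each start in the RefSeq annotation of GRCh38.p14. The exact letters occur in 304 of 35116 promoters (0.866%). Some genes have more than 1 promoter, and counted by gene the letters occur in 295 of 27305 (1.08%). Of the 16 cytosolic genes with a promoter entry, 6 hold them, namely AARS, CARS, IARS, MARS, NARS and TARS. Of the 14 mitochondrial genes with an entry, none does, and of 19 other ATF4 target genes with an entry 1 does, CHAC1. LARS, VARS, YARS, AARS2 and VARS2 were among those with no entry. The motif with the sixth base free (TGATGNAA, which includes the exact letters) is in 3.62% of promoters and 4.46% of genes with an entry. Of the 19 other ATF4 target genes, 4 hold it, among them ATF3, which was higher with ODC at 24 h. Among the members, GARS and the mitochondrial YARS2 were added. The windows below are printed because these members hold the motif and most of them carry the lower level. Each window runs from up to 60 bases before the motif to at most 20 after it. Capitals mark the motif.
AARS (chr16:70289666-70289753, - strand): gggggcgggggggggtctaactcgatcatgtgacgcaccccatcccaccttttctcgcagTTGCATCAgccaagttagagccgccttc
CARS (chr11:3057398-3057485, - strand): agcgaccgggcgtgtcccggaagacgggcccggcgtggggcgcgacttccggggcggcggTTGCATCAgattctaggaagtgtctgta
IARS (chr9:92293683-92293770, - strand): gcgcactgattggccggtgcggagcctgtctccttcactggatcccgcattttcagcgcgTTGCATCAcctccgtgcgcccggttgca
MARS (chr12:57488004-57488091, + strand): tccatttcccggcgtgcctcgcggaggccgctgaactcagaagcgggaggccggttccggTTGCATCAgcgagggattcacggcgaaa
NARS (chr18:57621807-57621882, - strand): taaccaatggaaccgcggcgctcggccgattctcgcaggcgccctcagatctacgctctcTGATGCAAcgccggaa
TARS (chr5:33440907-33440994, + strand): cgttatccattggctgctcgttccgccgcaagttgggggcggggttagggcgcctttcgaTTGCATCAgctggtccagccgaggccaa
GARS (chr7:30594785-30594872, + strand): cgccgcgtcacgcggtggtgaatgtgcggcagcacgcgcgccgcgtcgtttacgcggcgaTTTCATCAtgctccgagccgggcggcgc
YARS2 (chr12:32756067-32756147, - strand): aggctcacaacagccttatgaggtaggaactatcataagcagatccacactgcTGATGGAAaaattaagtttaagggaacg
The motif of CARS begins 2 bases before the RefSeq start, that of MARS 4, that of IARS 13, that of GARS 33, that of AARS 187 and that of YARS2 197. The motifs of TARS and NARS lie just past the start, beginning 3 and 15 bases into the first exon.

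The 6 cytosolic genes with the exact letters had a median log2 fold change of -0.52 at 24 h, and the 10 with an entry and no exact match had -0.069, of which GARS, SARS and WARS had an unadjusted p under 0.05. Across the rest of the genome, 70 tested genes that are not synthetases hold the exact letters, and their median was -0.13, with 16 of them (22.9%) lower and 2 higher at an unadjusted p under 0.05. Of the 9981 tested genes with a promoter entry and no exact match, 4.70% were lower and the median was -0.0013. The E-box CACGTG, the site of other factors such as MYC, is present in 7.26% of promoters and 8.77% of genes with an entry. It was found in IARS among the cytosolic genes and in CARS2, EARS2 and MARS2 among the mitochondrial ones. A match is a stretch of letters and not a measured binding site.

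ATF4 itself was lower at 24 h. Its level was 353, 358 and 278 CPM in CTRL and 200, 185 and 219 in ODC. The groups do not overlap, and the log2 fold change was -0.70 (SE 0.12) with an adjusted p of 0.0876 by edgeR. Of 24 other ATF4 target genes, 15 had a negative and 9 a positive log2 fold change, with a median of -0.15. At an unadjusted p under 0.05, 8 of them were lower and 1 was higher, where 5.04% and 7.2% of all genes were.

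PSAT1, an enzyme of serine synthesis, was at 363, 357 and 253 CPM in CTRL and at 179, 181 and 150 in ODC, with a log2 fold change of -0.91 (SE 0.16). CHAC1, which degrades glutathione, was at 29.9, 30.5 and 19.3 in CTRL and at 7.62, 7.70 and 14.98 in ODC, with a log2 fold change of -1.38 (SE 0.29). PSPH, the last enzyme of serine synthesis, was at 97.8, 130 and 94.6 in CTRL and at 65.6, 70.9 and 46.7 in ODC, with a log2 fold change of -0.80 (SE 0.19). None of these genes has overlapping groups. The gene that was higher at an unadjusted p under 0.05 was ATF3, a stress-induced transcription factor named here after its values were seen. It was at 10.5, 9.22 and 12.2 in CTRL and 22.3, 17.98 and 64.8 in ODC.

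The other parts of the translation machinery gave smaller differences. All 8 tested partners of cytosolic tRNA charging had a negative log2 fold change, with a median of -0.19, and XPOT, which exports tRNA from the nucleus, was the only one with an unadjusted p under 0.05 (-0.31, SE 0.11, adjusted p 0.314 by edgeR). Of 10 partners of mitochondrial tRNA charging and modification, the median was -0.0024. Of 6 cytosolic elongation factors the median was 0.035 and EEF1A2 was higher (0.63, SE 0.19), while none of 10 mitochondrial translation factors had an unadjusted p under 0.05 and their median was -0.056. Of 9 genes of eIF2 alpha signalling, with a median of -0.043, ATF4 alone had such a p.

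**Figure D5:**
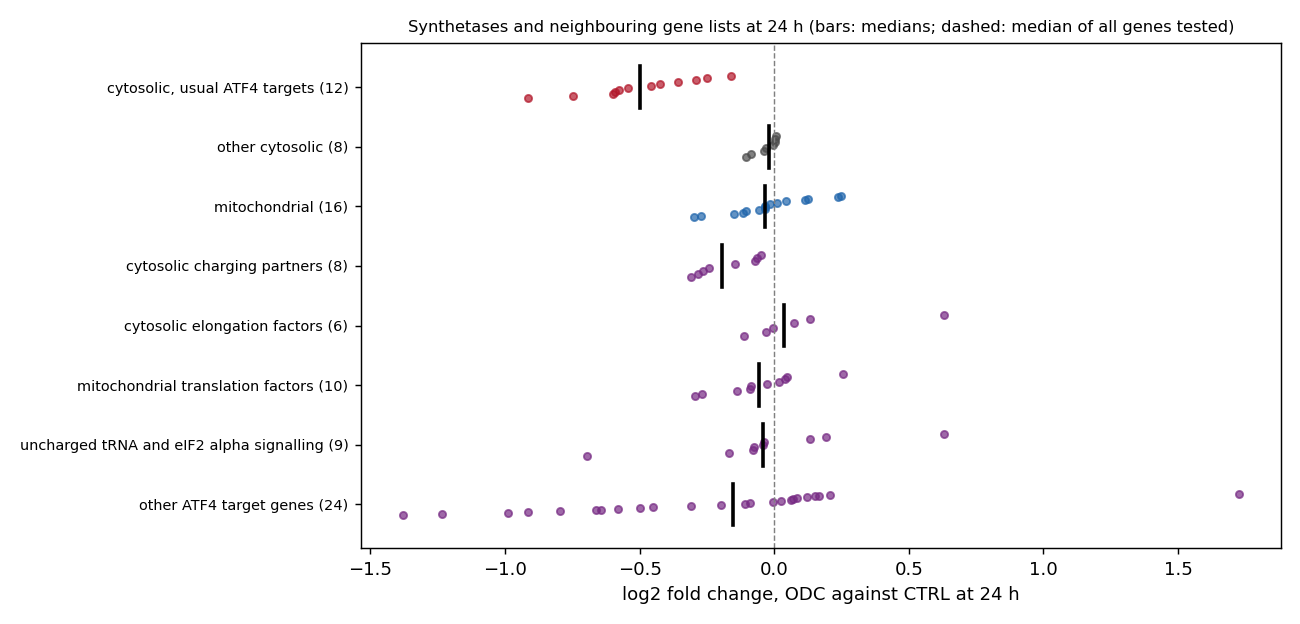
Log2 fold change of ODC against CTRL at 24 h for each gene (points) of 8 lists, with the median of each list (bars) and of all genes tested (dashed line). The cytosolic synthetases listed as ATF4 targets have the lowest median (-0.50), and the medians of the mitochondrial lists lie near 0.

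At 2 h no synthetase gene passed the test in the fit with all libraries of that time. In edgeR's quasi-likelihood test 0 of 36 members had an adjusted p under 0.05 and 0 had an unadjusted p under 0.05, and edgeR's likelihood ratio test and DESeq2 also gave 0 members by adjusted p, where they called 0.0375% and 0.0075% of all genes. Over the 13332 genes tested, 0.87% were lower and 1.47% were higher by unadjusted p, and 0% passed the adjusted threshold. The median log2 fold change was 0.053 for the cytosolic genes, 0.027 for the mitochondrial genes and 0.059 for the listed ATF4 targets. On leaving out each library in turn, the median ran from -0.037 to 0.156 for the cytosolic genes and from -0.059 to 0.190 for the listed targets. Without replicate 1 of CTRL the medians were -0.037 (cytosolic), 0.043 (mitochondrial) and -0.059 (listed targets). The sign of the cytosolic median thus rests on that library.

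That library was below the other CTRL library for most cytosolic genes. CARS was at 101 and 125 CPM in CTRL and at 113, 143 and 119 in ODC, a log2 fold change of 0.15 (SE 0.13), the highest of the cytosolic genes. LARS had the lowest at -0.025, with 208 and 226 in CTRL and 208, 224 and 208 in ODC. Both genes have overlapping groups.

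Among the mitochondrial genes at 2 h, FARS2, the phenylalanyl enzyme, had the highest log2 fold change (0.21, SE 0.14), at 10.8 and 12.3 CPM in CTRL and 13.7, 12.6 and 14.1 in ODC. AARS2, the alanyl enzyme, had the lowest (-0.055), at 26.6 and 32.1 in CTRL and 27.7, 29.6 and 27.4 in ODC. All ODC libraries lay above both CTRL libraries for RARS, FARS2 and VARS2 and for no other member, 3 of 36, and this was so for 7.89% of all genes. None of the 3 had an unadjusted p under 0.05.

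ATF4 at 2 h was at 214 and 344 CPM in CTRL and at 295, 385 and 331 in ODC, a log2 fold change of 0.27 (SE 0.19), and its groups overlap. Without replicate 1 of CTRL it was -0.024. Of the 24 other ATF4 target genes, 22 had a positive log2 fold change at 2 h, with a median of 0.18, but without that library 6 did and the median was -0.083, so the direction rests on it. In the fit with all libraries CEBPB, a transcription factor that pairs with ATF4, had an unadjusted p under 0.05. CEBPB was at 20.5 and 28.4 in CTRL and at 29.2, 32.2 and 31.6 in ODC. Without replicate 1 of CTRL its unadjusted p was 0.370 in edgeR's quasi-likelihood test.

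The effect at 24 h was set against the effect at 2 h in 1 fit over all 11 libraries. Of the cytosolic genes, 10 had a lower effect at 24 h at an unadjusted p under 0.05, all of them listed ATF4 targets, and of the mitochondrial genes TARS2 did (-0.33, SE 0.13). Over the 13333 genes tested, 2.77% were lower and 3.17% were higher. The difference of log2 fold changes had a median of -0.28 for the cytosolic and -0.071 for the mitochondrial genes, and of -0.24 and -0.040 without replicate 1 of CTRL at 2 h. No member had an adjusted p under 0.05 with the quasi-likelihood test, where 0.015% of genes did, while edgeR's likelihood ratio test and DESeq2 each called CARS and GARS, with 0.278% and 0.27% of all genes called by these tests.

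The difference was -1.08 (SE 0.22, adjusted p 0.313) for CARS, -0.89 (SE 0.21, adjusted p 0.490) for GARS and -0.67 (SE 0.18, adjusted p 0.527) for MARS by edgeR's quasi-likelihood test. It was -0.47 (SE 0.15) for SARS and -0.45 (SE 0.13) for TARS, and -0.98 (SE 0.25, adjusted p 0.503) for ATF4. QARS had the difference nearest to 0 of the cytosolic genes, at -0.00043, and EARS2 had the highest of the mitochondrial genes, at 0.27 (SE 0.18). Without replicate 1 of CTRL at 2 h, the library with collagen counts, 6 listed genes had an unadjusted p under 0.05 instead of 10, and AARS, IARS, NARS, YARS and TARS2 no longer did, while EARS2 did. Without it the difference for ATF4 was -0.68. The month of the 2 h and the 24 h libraries differs as well, and its part in this difference cannot be told apart from that of time.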

How the data were processed

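RNA from Caki-1-SR cells was sequenced from stranded mRNA libraries, and the authors deposited raw counts of reads per gene symbol in 1 table for each time. The submitters' processing notes name STAR 2.7.0f, HTSeq 0.9.1 and edgeR 3.26.8 with build hg38, and the strand setting of the counting is not given in the sources used here. From the counts, genes with at least 10 counts in enough libraries and 15 in total were kept by edgeR's filter. Each time was scaled by TMM and fitted on its own, ODC against CTRL, with edgeR 4.0.16 (quasi-likelihood test, in R 4.3.3 with limma 3.58.1), and p-values were adjusted over all genes by the Benjamini-Hochberg method. The effect at 24 h minus that at 2 h was an interaction term over all 11 libraries. The alternatives were other filters, scalings and tests (DESeq2 1.42.0 among them) and leaving out each library. Levels are counts scaled to the size of each library after TMM (CPM). The scripts were tested on simulated data.

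Genes were matched to RefSeq by symbol (23758 of 26485 directly, 1567 through an older symbol and 1160 not), and transcript lengths came from GENCODE 44. The members and lists were chosen with earlier results of these data known. In each comparison and compartment, values in every library are given for members with an adjusted p under 0.05, or otherwise for up to 5 with the smallest p among those with an unadjusted p under 0.05, and for the members with the highest and lowest log2 fold change. From each list of other genes, at most the 3 with the smallest p in a comparison are named. ATF3, KARS and the CTRL values of AARS were given beyond these rules. Genes with a count of 3 or fewer would be at the detection floor, and no member was. Some genes are counted in their lists but not reported here by name.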

Additional observations from a re-analysis of the deposited data

How the results depend on the processing

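The lower level of listed cytosolic genes at 24 h held in each alternative run, with 10 to 11 genes at an unadjusted p under 0.05. All of these were listed ATF4 targets, and no other cytosolic gene had such a p in any run. The adjusted calls depended on the test. The count of members with an adjusted p under 0.05 at 24 h was 0 in the quasi-likelihood fit, 2 with every gene of at least 1 count kept, 6 with the likelihood ratio test, 7 with DESeq2 and 3 with all 11 libraries in 1 fit, and 0 to 1 on leaving out each library. The genes called over the whole table went from 24 to 92, 401, 378 and 186 in the same order. LARS lost its unadjusted p under 0.05 with the likelihood ratio test and without each 24 h library but replicate 3 of CTRL, and EPRS gained one without replicate 3 of ODC. The mitochondrial count at 24 h went from 2 to 1 with every gene kept, with the likelihood ratio test and with DESeq2, and lay between 1 and 2 on leaving out each library. For the difference between the times, the count of adjusted calls went from 0 to 2 with the likelihood ratio test and 2 with DESeq2. The mitochondrial count of the difference went from 1 to 0 with every gene kept and with the likelihood ratio test, and was 0 to 1 on leaving out each library. The cytosolic count of the difference was 6 to 11 on leaving out each library, with the lowest value without replicate 1 of CTRL at 2 h. AARS and IARS also lost their p without replicate 2 of ODC at 2 h, and AARS without replicate 2 of CTRL at 24 h. The mitochondrial median at 2 h was 0.015 to 0.098 on leaving out each library. No direction reversed for a result with a call. Beyond these, the cause of each change was not tested. No paired analysis was made. The labels number the 24 h libraries consecutively across both groups, with CTRL and ODC alternating, and name no pairs. Whether CTRL and ODC libraries were matched is not given, and all fits took them as unpaired. With 2 or 3 libraries a group, the 24 h fit had a biological coefficient of variation of 0.166, which limits the differences that can be called. Mitochondrial members had lower counts, down to 90 in a library.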
